A study of Rattus norvegicus with 4 samples.

Results

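Markers of macrophages and monocytes were examined in cochlear lateral wall tissue of rats after 3-nitropropionic acid (3-NP), an inhibitor of mitochondrial complex II, and after saline. The 8 genes were taken by symbol, with earlier results of these data known: Mrc1 and Cd163 as markers of resident perivascular macrophages, Cd14, Lgals3 and Itgam as markers of recruited or activated cells, and Cd68, Csf1r and Aif1 as markers found in both. All 8 of them were among the 13810 genes named on the arrays, through 10 probe sets outside the platform controls. The study had 4 arrays in 4 groups: saline at day 1, 300 mM 3-NP at day 1, saline at day 3 and 300 mM 3-NP at day 3, with 1 array in each. Every animal was a female Sprague-Dawley rat aged 8 to 10 weeks and weighing 180 to 210 g, infused at the left round window; the right cochlea was destroyed surgically. Per the labels, the tissue came from the apical side of the basal turn, or from the second turn with the stria vascularis removed, as another label field has it. How many animals went into an array was not stated in the labels.

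Macrophages of the lateral wall lie along the vessels of the stria and among the fibrocytes of the spiral ligament, where they take up debris and contact the capillary wall. Circulating monocytes can enter the tissue after injury and turn into macrophages there, losing some monocyte markers and gaining others. Mrc1 encodes the mannose receptor and Cd163 the scavenger receptor for haptoglobin and haemoglobin complexes, both carried by many perivascular macrophages. Cd14 encodes the lipopolysaccharide co-receptor of monocytes, Lgals3 the secreted lectin galectin-3, and Itgam the alpha chain of the CR3 integrin. Cd68 encodes a lysosomal glycoprotein, Csf1r the receptor for the growth factors CSF1 and IL-34, and Aif1 the actin-binding protein IBA1. Several of these genes, Lgals3 and Cd14 among them, are also expressed by cells other than macrophages. In RNA from a whole tissue, fewer cells of a type and less RNA per cell cannot be told apart.

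The arrays of day 1 and day 3 had different designs, and no member was on both. Cd14, Cd68, Lgals3, Csf1r, Aif1 and Itgam were measured only at day 1, and Mrc1 and Cd163 only at day 3. The resident markers among the members were therefore never measured beside the recruited ones, and day and array design cannot be told apart. With 1 array per group, the differences cannot be checked against replicates, and p-values were not computed. Each ratio of 3-NP over saline is a log2 value relative to the median gene of its day, which lay at 0.44 at day 1 and 0.10 at day 3 in the signals as deposited. Signals under an array's 30th percentile, the floor, were set to it, and a gene passed the filter when it reached the 50th percentile in at least 1 array of the day. The filter was passed by 6533 genes of day 1 and 3972 of day 3. Among markers of the labelled tissue, Coch, the cochlin gene of spiral ligament fibrocytes, had signals of 6548 in saline and 5677 in 3-NP at day 3. Car3, another fibrocyte gene, did not pass at that day, with 16.8 in saline and 11.1 in 3-NP.

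The recruited or activated markers that could be measured were higher in the 3-NP array at day 1. The signal of Lgals3 was 97.9 with saline and 736 with 3-NP. The 3-NP array was the higher one, by 2.47 on the relative log2 scale, which is 5.54-fold, and 69 of 6533 genes had a higher ratio. Cd14 had 44.9 in saline and 177 in 3-NP. It too was higher in 3-NP, by 1.54 on that scale or 2.91-fold, and 218 genes lay above it. Itgam, the other marker of this kind, had 2.74 in saline and 15.2 in 3-NP. Both signals were under the floors of 17.1 and 22.0, so no ratio is given for Itgam.

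The markers carried by resident and recruited cells alike stayed close to the median gene at day 1. Cd68 had 40.8 with saline against 70.3 with 3-NP, so that its relative log2 ratio was 0.34. Csf1r had 65.9 with saline against 85.9 with 3-NP, so that its relative log2 ratio was -0.06, which turned to 0.38 in the signals as deposited. Neither was 2-fold apart. The 2 probe sets of Aif1 were under the floor in both arrays, one with 16.6 in saline and 17.0 in 3-NP and the other with 5.98 and 14.6. Of the 6 members on this array, 4 passed the filter. Cd14 and Cd68 passed through the 3-NP array alone, Cd14 with a saline signal just under the filter value of 44.9, while Lgals3 and Csf1r reached it in both arrays. Among all genes that passed at day 1, 7.76% were at least 2-fold higher and 6.47% at least 2-fold lower (507 and 423 genes). As deposited, 1169 genes were higher and 171 lower, so that the higher genes made up 87.2% of those apart, against 54.5% relative to the median gene.

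**Figure D1:**
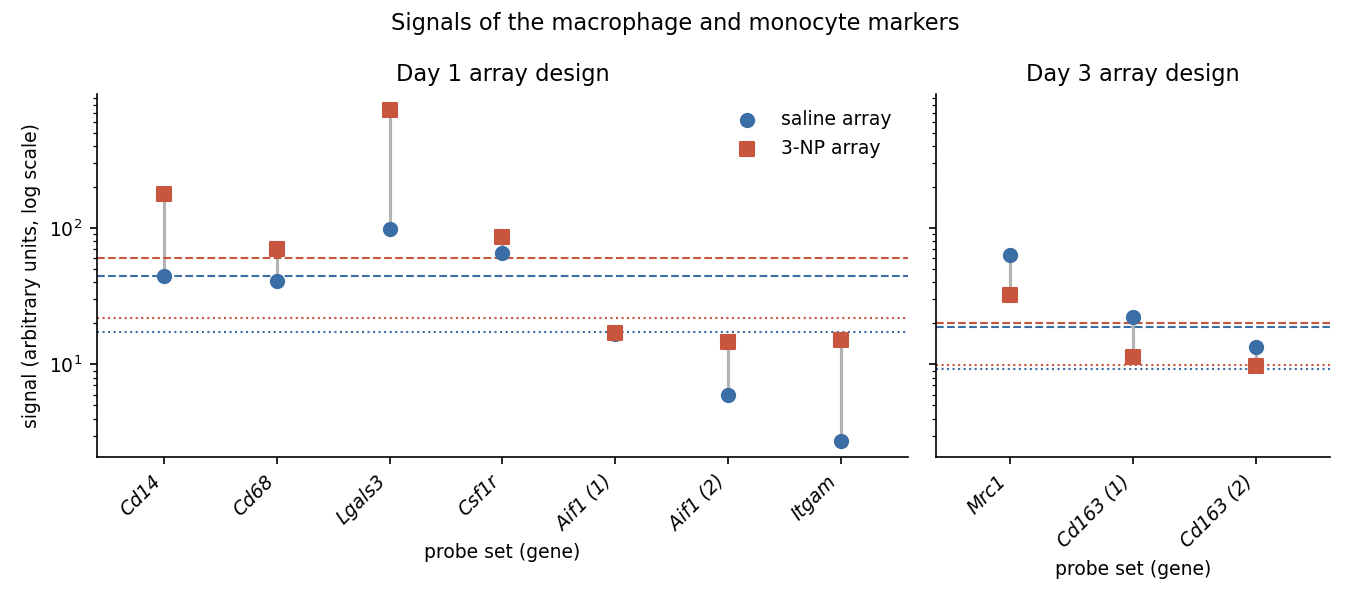
Signal of each member probe set (arbitrary units, log scale) in the saline array (circles) and the 3-NP array (squares), with day 1 on the left and day 3 on the right; dotted lines mark each array's floor and dashed lines the filter value, in the array's colour, and (1) and (2) tell apart the probe sets of a gene. Lgals3 and Cd14 are higher in 3-NP at day 1, Mrc1 and Cd163 lower at day 3, and the probe sets of Aif1 and Itgam lie under the floors of 17.1 and 22.0.

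Both resident markers were lower in the 3-NP array at day 3. The signal of Mrc1 was 63.5 with saline and 32.2 with 3-NP. The 3-NP signal was the lower one, the relative log2 ratio being -1.08 and the fold 2.11, and 269 of 3972 genes lay lower still. The brighter Cd163 probe set had 22.2 in saline and 11.4 in 3-NP. This gave a relative log2 ratio of -1.07, or 2.09-fold lower, with 278 genes below it. The other Cd163 probe set, which did not pass the filter, had 13.4 in saline and 9.67 in 3-NP, the latter under the floor of 9.85. It therefore gives a bound, at least 1.46-fold lower, in the same direction.

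Both members on the day 3 array passed the filter, Mrc1 in both arrays and Cd163 through saline alone. At that day 9.21% of the genes that passed were at least 2-fold higher and 8.18% at least 2-fold lower (366 and 325 genes). The ratios of Mrc1 and Cd163 lay just past the 2-fold line and just short of it as deposited, at -0.98 and -0.97. With the floor raised to the 50th percentile, that of Cd163 was -0.25.

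**Figure D2:**
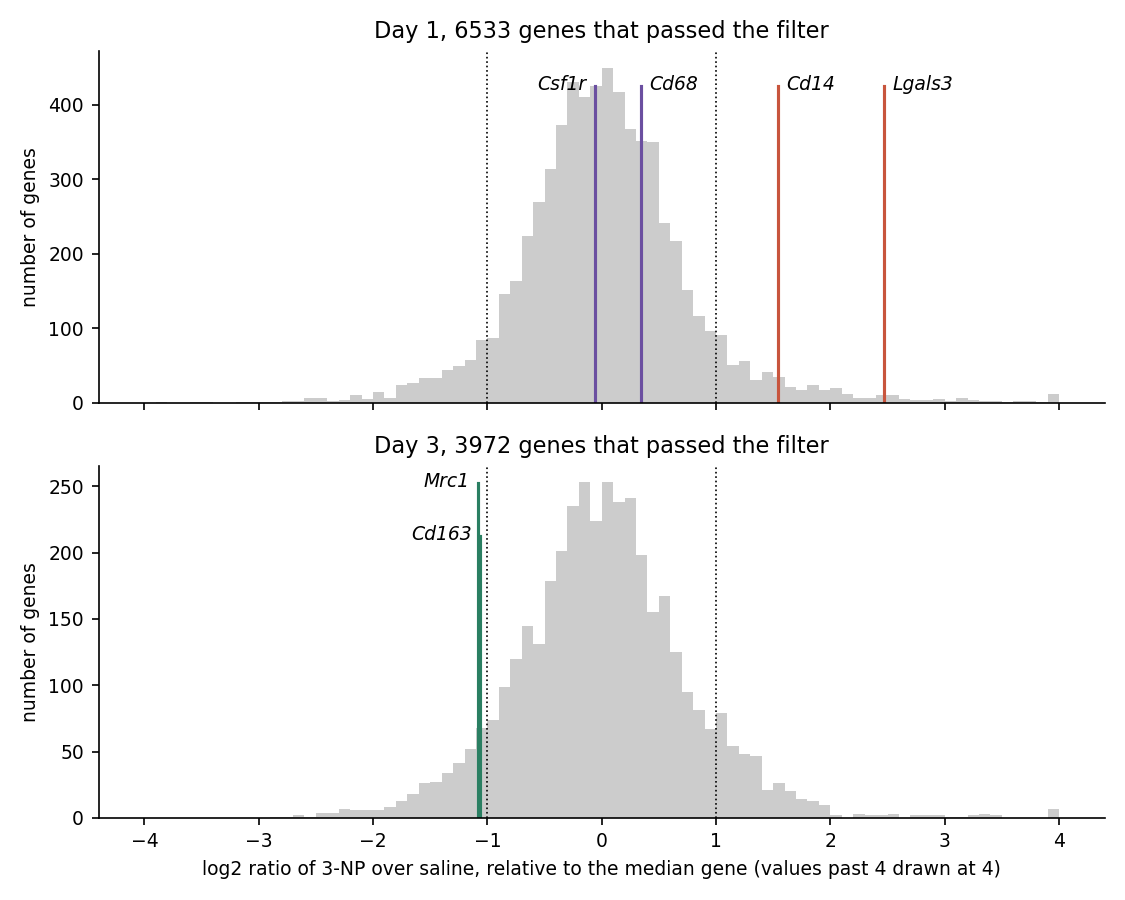
Histograms of the relative log2 ratio of 3-NP over saline for the genes that passed the filter, 6533 at day 1 (top) and 3972 at day 3 (bottom), with coloured vertical lines at the members, dotted lines at 2-fold and values past 4 drawn at 4. Lgals3 (2.47) and Cd14 (1.54) lie in the upper tail at day 1, Cd68 (0.34) and Csf1r (-0.06) near the centre, and Mrc1 (-1.08) and Cd163 (-1.07) just past the lower dotted line at day 3.

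The spread between probe sets of the same gene gives a scale for these ratios, covering probe sets and hybridisation but neither animals nor dissection. Per probe set this SD was 0.35 over 744 genes of day 1 and 0.47 over 805 genes of day 3, in log2 units. It was larger among dim genes, 0.39 against 0.31 at day 1 and 0.56 against 0.36 at day 3. Lgals3 and Cd14 lay several such SDs from the median gene, whereas Cd68 and Csf1r lay within 1 SD. Mrc1 and Cd163 had mean signals of 45.2 and 15.9 on the log scale, under the value of 57.4 that divides the 805 genes of day 3. Their ratios were each just under 2 of the SDs of the dim genes. Neither gene is among the 805, which have at least 2 probe sets past the filter, so this SD was not measured on them.

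Promoter sequences are shown for the member that was higher at day 1 and for those that were lower at day 3, as far as the RefSeq promoter table (GRCr8) holds them. It held 6 of the members, not Lgals3 or Aif1. Each line gives the 250 bases before the annotated start, 5′ to 3′ on the gene's strand, with motif matches in capitals. The motifs searched on both strands were GAGGAA, a core read by the myeloid factor PU.1, TGACTCA, read by AP-1, and a kappaB-like motif of GGG and CC with any 5 bases between them.
Cd14, GRCr8 chr18:28611159-28611408, minus strand: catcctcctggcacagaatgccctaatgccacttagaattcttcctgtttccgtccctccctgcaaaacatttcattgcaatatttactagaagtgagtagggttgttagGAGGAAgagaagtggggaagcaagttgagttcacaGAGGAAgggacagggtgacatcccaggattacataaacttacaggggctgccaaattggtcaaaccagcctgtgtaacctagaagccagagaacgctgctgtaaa
Mrc1, GRCr8 chr17:82157475-82157724, plus strand: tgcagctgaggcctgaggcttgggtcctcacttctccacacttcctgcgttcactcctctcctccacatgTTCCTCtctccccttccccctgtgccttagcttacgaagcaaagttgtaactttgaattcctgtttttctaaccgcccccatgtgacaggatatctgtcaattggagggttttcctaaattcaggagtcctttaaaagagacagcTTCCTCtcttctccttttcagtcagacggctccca
Cd163, GRCr8 chr4:158770524-158770773, plus strand: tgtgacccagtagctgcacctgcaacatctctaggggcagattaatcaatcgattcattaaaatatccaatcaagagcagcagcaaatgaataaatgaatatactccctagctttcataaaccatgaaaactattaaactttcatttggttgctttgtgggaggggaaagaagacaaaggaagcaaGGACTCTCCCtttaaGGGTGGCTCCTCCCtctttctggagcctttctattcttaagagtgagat

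The PU.1 core was found in 5 of these 6 members, Mrc1, Cd14, Cd68, Csf1r and Itgam, and in 23.3% of 33469 promoters of this length. The Cd14 promoter held it at 140 and 105 bases before the start and the Mrc1 promoter at 180 and 35, on the opposite strand. The AP-1 motif occurred only in the promoter of Cd68 among the 6, and in 4.05% of all promoters. The kappaB-like motif occurred only in that of Cd163, with matches that begin 64, 49 and 45 bases before the start, the last pair overlapping, and in 42.3% of all promoters. These matches describe the letters in the window and were not set against any binding data.

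Wider lists of the same cells were examined next, since both array designs held some of their genes. Of 12 resident or perivascular markers, 8 were on the day 1 array and 5 passed, with a median of -1.06 and 3 at least 2-fold lower. F13a1 and Mertk passed through the saline array alone, where they were higher, so the filter itself favoured low ratios. Asking for the 50th percentile in both arrays left them out and moved the median to -0.66. Folr2, a folate receptor gene that did not pass, was at -0.04. F13a1, the coagulation factor XIII A chain of tissue macrophages, had 196 with saline against 41.2 with 3-NP, so that its relative log2 ratio was -2.69, and -1.63 by its other probe set. Maf, a transcription factor gene of resident macrophages that other cells also use, had 432 and 250, a ratio of -1.23, but -0.55 and -0.26 by its other probe sets. Mertk, a receptor for the uptake of dying cells, was at -1.06 with -1.54 by another probe set, and its ligand gene Gas6 at -0.67 with 0.53 by another. The chemokine gene Pf4 was at -0.40 and turned to 0.04 as deposited. Mertk, Gas6 and Pf4 were named after their values were seen. As deposited, 1 of the 5 was at least 2-fold lower in place of 3, namely F13a1, and their median was -0.63.

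At day 3, 4 of the 12 resident markers were on the array and all 4 passed, including Mrc1 and Cd163. Cd163 passed through saline alone. The median was -1.07, and 3 were at least 2-fold lower, against 1 as deposited. Lyve1, a hyaluronan receptor gene of perivascular macrophages and of lymphatic endothelium, had 124 in saline and 29.4 in 3-NP. Its relative log2 ratio was -2.17, lower than that of Mrc1 or Cd163. At day 1 Lyve1 had 41.0 in saline and 17.8 in 3-NP by the other design, below the filter and with 3-NP at the floor, so it was at least 2.52-fold lower. Gas6 was at -0.58 at day 3. Of the genes in the resident list, Lyve1 and Gas6 were those seen on both designs with signal above the floor in saline. At day 1 the 2 probe sets of Gas6 differed in direction, at -0.67 and 0.53. Which cells gave the signal of Gas6 was not tested.

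The list of recruited or activated monocyte markers had 12 of 17 genes on the day 1 array. Only 5 passed, of which 4 lay above the median gene, with a median of 0.72, or 0.54 over the 3 that are not members. Cd14 passed through the 3-NP array alone, and asking for the 50th percentile in both arrays moved the median to 0.64. Besides Lgals3 and Cd14, Cd44, a hyaluronan receptor gene, was at 0.72 (1.42 by another probe set), Gpnmb, a glycoprotein gene of macrophages and pigment cells, at 0.54, and Spp1, the osteopontin gene, at -0.80. Spp1 is also strongly expressed by bone cells. Ccr2, the receptor by which monocytes follow CCL2, was under the floor in both arrays, with 0.962 in saline and 2.29 in 3-NP. Plac8 had 18.6 and 47.4 and did not pass. The inducible enzyme genes Nos2 and Arg1 each had 1 signal at the floor and did not pass either. Among day 1 genes that passed, the resident list (-2.69 to -0.40) and the recruited list (-0.80 to 2.47) overlapped through Spp1. The filter favoured this contrast, since F13a1 and Mertk had passed through saline alone and Cd14 through 3-NP alone. Below the filter, the resident Folr2 (-0.04) lay above the recruited Ly6c (-0.26), while Plac8 was at 0.91 and Lyve1 at least 2.52-fold lower. At day 3 Fcgr1a, a high-affinity IgG receptor gene, was the recruited list's sole gene, at 0.02. The genes of the recruited list, other than Lgals3, Cd14 and Fcgr1a, were named after their values were seen.

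Genes shared by most macrophages differed little. Of 30 pan-macrophage and myeloid genes, 25 were on the day 1 array and 14 passed, with 0 at least 2-fold higher, 0 lower (2 and 0 as deposited) and a median of 0.21. Their range ran from -0.76 for Cyba to 0.88 for Coro1a, which passed through the 3-NP array alone. The lysozyme gene Lyz2, the brightest of them, had 1183 with saline against 1876 with 3-NP, so that its relative log2 ratio was 0.23. The complement C1q chains C1qa, C1qb and C1qc were at 0.13, 0.46 and 0.56, the protease gene Ctss at 0.44 and the Fc receptor chain gene Fcer1g at 0.19. Ptprc, which encodes the leukocyte marker CD45, was under the floor in both arrays, with 6.03 in saline and 5.24 in 3-NP. At day 3, 3 of 5 genes on the array passed, with a median of 0.19. The lysosomal membrane gene Laptm5 was at -0.27 there and at -0.30 at day 1, Hcls1 at 0.41 and Cybb, the phagocyte oxidase gene, at 0.19. The named genes of this list other than Lyz2 and Laptm5 were chosen after their values were seen.

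**Figure D3:**
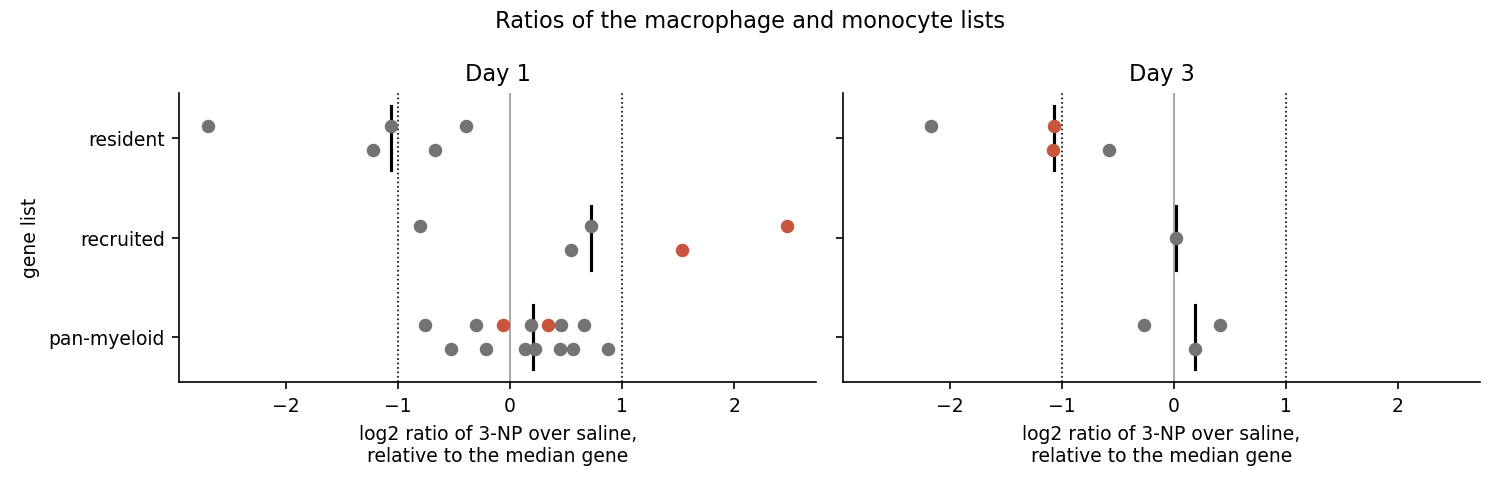
Relative log2 ratio of 3-NP over saline for each gene of the resident, recruited and pan-myeloid lists that passed the filter, at day 1 (left) and day 3 (right); members are in red, black bars mark list medians and dotted lines 2-fold. The resident genes that passed lie to the left of 0 on both days (medians -1.06 and -1.07), some of them having passed through saline alone. The recruited list lies mostly to the right at day 1 (0.72), Cd14 having passed through 3-NP alone, and the pan-myeloid list around 0.21.

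Signalling partners of the members went their own ways. Csf1, the growth factor gene for the receptor encoded by Csf1r, had 22.0 with saline against 79.0 with 3-NP at day 1, so that its relative log2 ratio was 1.40. At day 3 its 3 probe sets were at 0.42, 1.49 and 1.13, the brightest being the lowest. Csf3, the granulocyte growth factor gene, was at least 6.73-fold higher at day 1 with saline at the floor. In the list of CSF1 and CSF2 receptor signalling 2 of 4 genes that passed were higher at day 1 and 0 of 3 at day 3. The higher ones, Csf1 and Csf3, passed through the 3-NP array alone, so the filter itself favoured high ratios. Asking for the 50th percentile in both arrays moved the day 1 median of this list from 0.89 to 0.16. Il34, which encodes the other ligand of the receptor, was at -0.07 at day 3, named after its value was seen.

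Around Cd14, the adaptor gene Myd88 had 60.1 with saline against 332 with 3-NP at day 1, so that its relative log2 ratio was 2.03. Lbp, which encodes the protein that hands lipopolysaccharide to CD14, had 159 and 431 and lay at the 2-fold line. Tlr4, the signalling receptor gene, did not pass, with 26.3 in saline and 31.2 in 3-NP. Altogether 3 of 7 genes of CD14 and TLR4 signalling were at least 2-fold higher and 0 lower (median 0.30). Lbp, 1 of the 3, fell to 0.96 when centred on the probe sets shared by both designs. At day 3, 1 of 8 was higher, the kinase gene Irak2 at 1.03, and 1 lower, Cd180, at least 2.44-fold with 3-NP at the floor. Irak2 was just short of 2-fold with the shared probe sets, at 0.9985. The median was 0.25. Tlr2 was at 0.86 and Ly96, the partner of TLR4, at 0.64. Tlr2 passed through the 3-NP array alone and Cd180 through saline alone. Lbp, Tlr4, Tlr2 and Ly96 were named after their values were seen.

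Around Cd163, the heme oxygenase gene Hmox1 (29.8 in saline and 551 in 3-NP) was at 3.77 at day 1. Hpx, which encodes the heme carrier hemopexin, was at least 4.03-fold higher with saline at the floor. The list had 2 of 6 genes higher and 0 lower. The higher ones, Hmox1 and Hpx, passed through the 3-NP array alone, so here too the filter favoured high ratios. The list median was 0.60, and 0.43 when the 50th percentile was asked of both arrays. Hp, the haptoglobin gene, did not pass. At day 3 the endocytic receptor gene Lrp1, which takes up hemopexin, was at least 2.80-fold higher by a probe set with saline at the floor, but at -0.10 at day 1 by the other design. Rhbdf2 was at 1.02, and 2 of 4 genes were higher and 1, Cd163 itself, lower. These counts change with the scaling: Rhbdf2 was at 0.99 when centred on the shared probe sets, and Cd163 at -0.97 as deposited.

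Around Itgam, the ligand genes C3 and Icam1 were at 2.76 and 2.36 at day 1, and the other 5 of 7 genes were under 2-fold apart. C3 passed through the 3-NP array alone, Icam1 in both arrays. None of 3 was 2-fold apart at day 3, among them Itgb2, the beta chain that pairs with the product of Itgam, at 0.47, and Itgal at -0.22. Galectin genes differed among themselves: Lgals3bp, which encodes a galectin-3 binding protein, was at 2.96 at day 1 (28.2 in saline and 298 in 3-NP) and Lgals9 at 1.76, while Lgals1 was at -0.37 and Lgals8 at -0.27. Of 5 galectin list genes 3 were higher, with a median of 1.76, or 0.74 without Lgals3. The median of 1.76 was -0.27 when a signal past the filter was asked of both arrays, since Lgals3bp and Lgals9 then dropped out. Itgb2, Lgals9, Lgals1 and Lgals8 were named after their values were seen.

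Of 16 lysosome and phagosome genes 2 were higher, the cathepsin genes Ctsb (1.04) and Ctsl (1.01), and 1 lower, Ctsh (-1.37). Ctsb and Ctsl fell just short of 2-fold under quantile normalization, at 0.99 and 0.97. They also did when centred on the shared probe sets, at 0.997 and 0.974. The list median was 0.02, and Cd68, itself in the list, was the fourth highest at 0.34. The scavenger receptor genes Scarb1 and Scarb2, the only genes of the mannose receptor list to pass at day 1, were at 1.81 and 1.67, and neither is restricted to macrophages. Scarb1 passed through the 3-NP array alone. Among 9 actin and phagocytic cup genes Pfn1 (1.21) and Msn (1.15) were higher and Aif1l, a relative of Aif1, lower at -1.48. The list median was 0.69, and Aif1l passed through saline alone at day 1. Aif1l had 3059 in saline and 1145 in 3-NP at day 3, a ratio of -1.52. The design of day 3 held 1 further gene each of the lysosome and mannose receptor lists that passed besides the members, Gla at -0.39 and Clec7a, a receptor for fungal glucans, at 0.46.

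Markers of other cell types were read the same way. Of the neutrophil list 3 of 5 genes on the day 1 array passed: Lcn2, a lipocalin gene that epithelia and injured tissue also express, at 3.66, S100a9 at 0.34 and S100a8 at -0.65. S100a8 passed through saline alone. The defining neutrophil genes Cxcr2 and Mmp8 were under the floor in both arrays. The summed signal of the list was 273 in saline and 2292 in 3-NP, of which Lcn2 had 122 and 2093. Such sums are of signals as deposited over all genes of a list on the array, also those under the floor. Relative to the median gene, the log2 ratio of these sums was 2.63. Of 12 T and NK cell genes 1 passed, Cd3g at -0.98 and through saline alone, and 8 were under the floor in both arrays. The sums were 148 and 184 as deposited, which is -0.13 relative to the median gene. The B cell gene and all 7 mast cell genes on the array failed the filter. Their part in the ratios of Lgals3 and Cd14 was not tested.

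Blood and vessel markers differed among themselves at day 1. The erythrocyte genes Hbb and Alas2 were at 0.53 and 0.74, neither of them 2-fold apart. The summed list signal was 3832 in saline and 7521 in 3-NP as deposited, which is 0.53 relative to the median gene. All 5 endothelial genes that passed were above the median gene and 4 were at least 2-fold higher. Their median was 1.47, and the list sums were 372 and 1056 as deposited, which is 1.07 relative to the median gene. Esam, 1 of the 4, was at 1.04, but at 0.9995 when centred on the probe sets shared by both designs. The VEGF receptor gene Kdr stood at 1.61, while Plvap was at least 2.93-fold higher with saline at the floor. Of the pericyte and smooth muscle genes, Mcam was at least 3.57-fold higher with saline at the floor, and at 0.82 by its other probe set. Rgs5 was 2.20-fold lower at -1.14. Plvap and Mcam passed through the 3-NP array alone and Rgs5 through saline alone, so the filter favoured these directions. Tagln, a smooth muscle gene below the filter, was at -1.39. Pecam1, a gene of endothelium and leukocytes, was at -0.23 and below the filter. The part of blood content in the values of Lgals3 and Cd14 was not tested.

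Fibrocyte and pigment cell markers that passed were lower at day 1. The fibrocyte genes that passed were also below the median gene at day 3, while the pigment cell genes were mixed. At day 1 all 6 fibrocyte genes on the array were below the median gene, 5 of them at least 2-fold lower (3 as deposited), with a median of -1.35. The sums were 9752 in saline and 4796 in 3-NP as deposited, which is -1.46 relative to the median gene. Car3 (-2.57) and Gjb6 (-2.48), a carbonic anhydrase and a connexin gene, were the lowest. The melanocyte and intermediate cell genes Mlana and Mitf were at -1.29 and -1.17, and Kcnj10, the potassium channel gene of strial intermediate cells, was under the floor in both arrays. At day 3 the fibrocyte genes Tbx18 and Coch were at -1.19 and -0.31, the latter turning to 0.19 under quantile normalization. Of 4 pigment cell genes 2 lay above the median gene and 2 below: Tyr was at -1.85, Mitf at -0.97 and Pmel, the brightest, at 0.15, whereas 1 probe set of Tyrp1 was at least 7.02-fold higher with saline at the floor and the other was at 0.69. The fibrocyte sums at day 3 were 6917 and 5854 as deposited, which is -0.34 relative to the median gene. The part of tissue composition in the values of F13a1 at day 1 and of Mrc1, Cd163 and Lyve1 at day 3 was not tested. The Schwann cell genes, by contrast, had a median of 0.33 over 4 genes at day 1, and the osteoclast protease gene Ctsk was at 0.05. At day 3 few genes of these lists passed: Csf3r of neutrophils at -0.29, Cd22 of B cells at -0.06, Tnfrsf11a of osteoclasts at 0.94, Tek of endothelium at -0.66, Pdgfrb of pericytes at 0.72 and Mbp of Schwann cells at -0.05. Csf3r passed through saline alone and Tnfrsf11a through 3-NP alone.

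**Figure D4:**
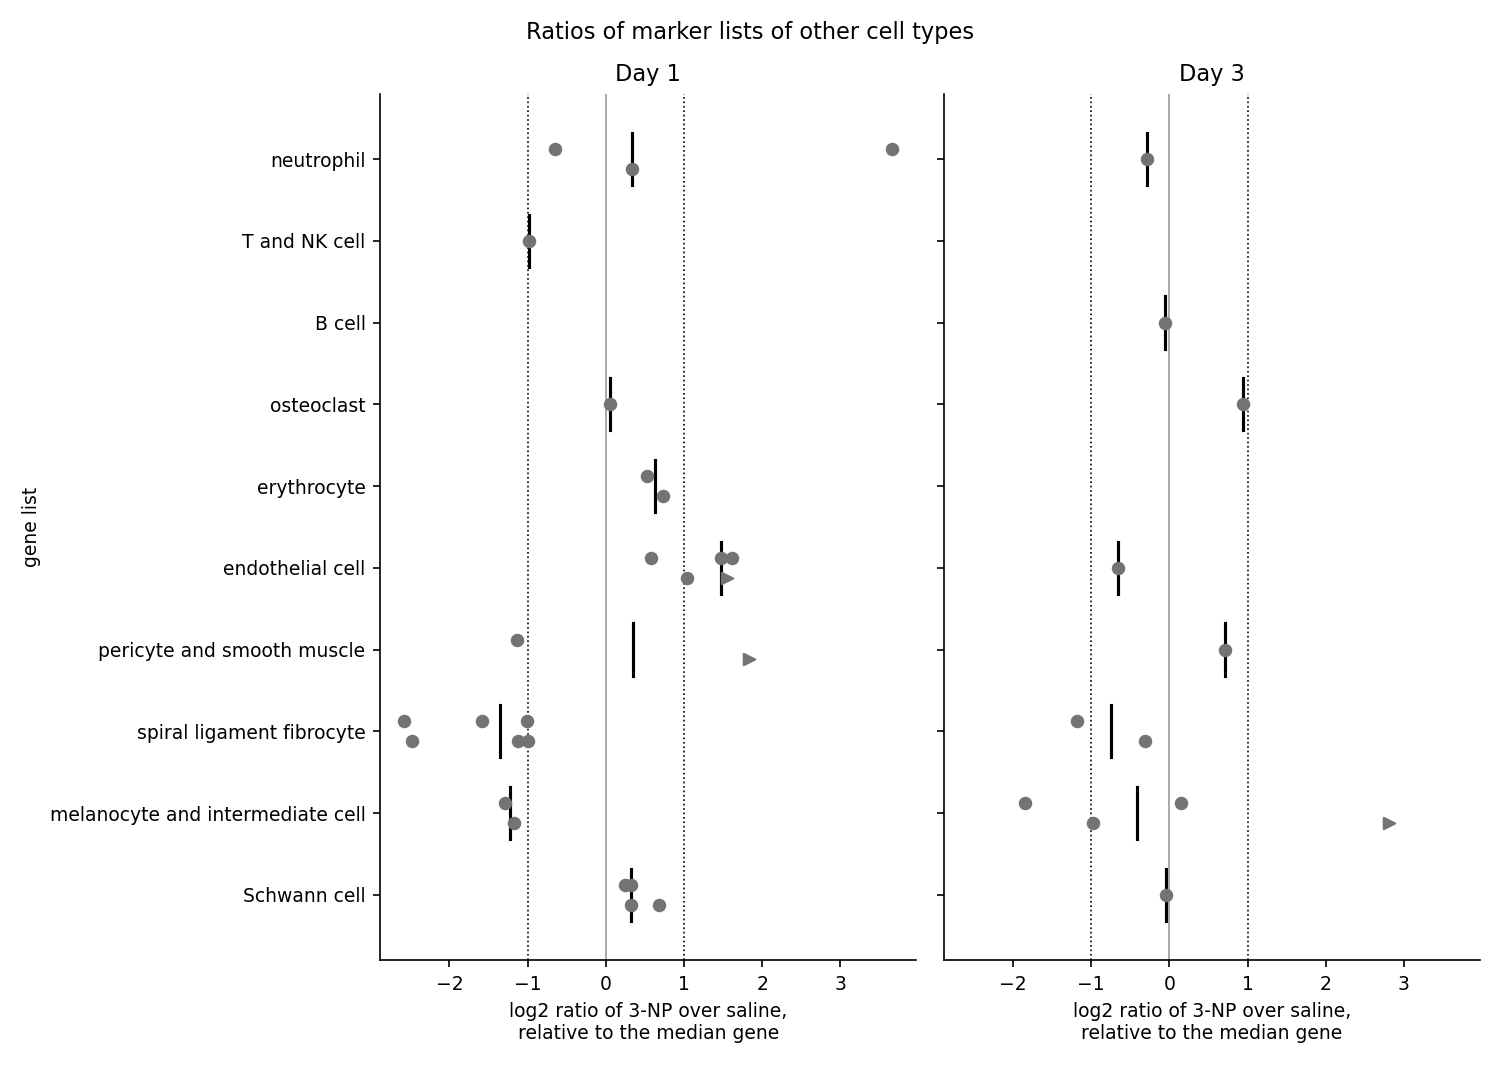
Relative log2 ratio of 3-NP over saline for each gene of 10 marker lists of other cell types that passed the filter, at day 1 (left) and day 3 (right); triangles are bounds with 1 signal at the floor, black bars list medians and dotted lines 2-fold. Endothelial genes lie to the right (median 1.47) and fibrocyte genes to the left (median -1.35) at day 1.

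**Figure D5:**
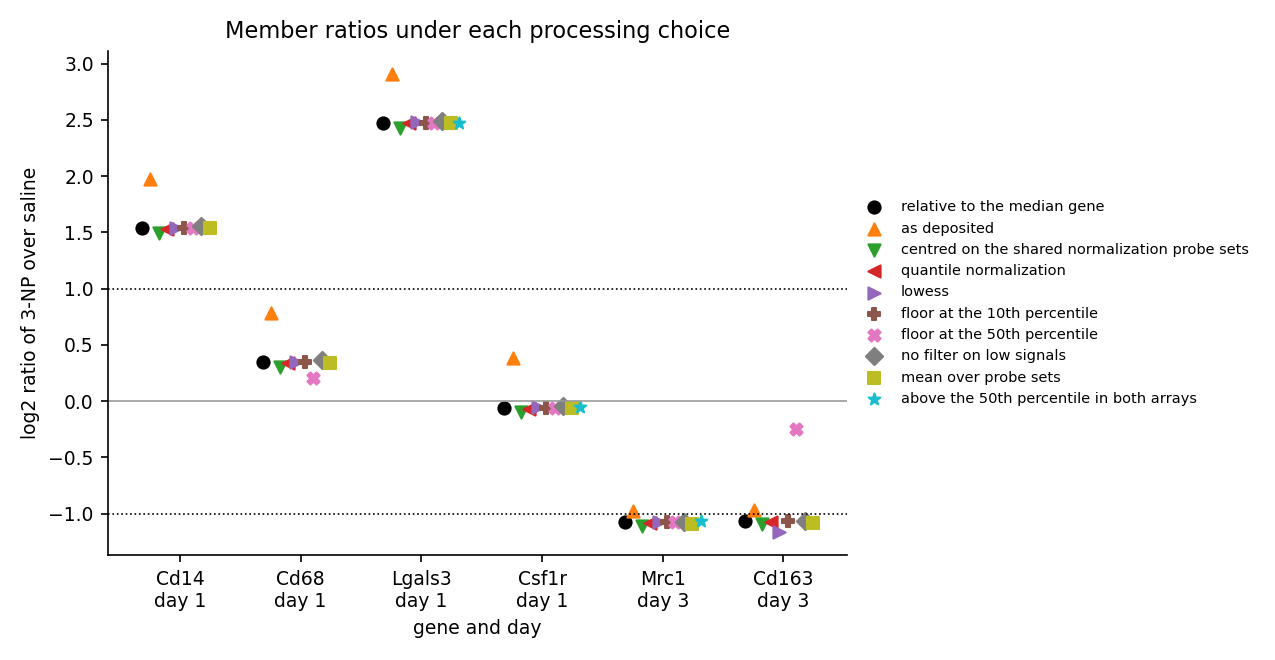
Log2 ratio of 3-NP over saline of the 6 members that passed the filter, under the main setting (black circles) and up to 9 other processing choices; dotted lines mark 2-fold. Lgals3 stays between 2.43 and 2.91 and Cd14 reaches at most 1.98, Mrc1 lies at or near the lower line, and Cd163 moves to -0.25 with the floor at the 50th percentile.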

How the data were processed

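Biotin-labelled cRNA from 6 µg of total RNA went onto Affymetrix arrays (per the labels' protocols). Values were deposited as linear signal intensities per probe set, which the authors computed using MAS5 according to the submitters' processing notes. The labels state neither its version nor a scaling target. Genes were named from the platform annotation, updated by gene identifier to RefSeq (GRCr8), using probe sets with 1 symbol (12783 of 15923 at day 1 and 7564 of 15333 at day 3). Percentiles leave out the 57 controls. A gene is represented by its brightest probe set by mean log2 signal, and a log2 ratio of 1 in size counts as 2-fold. A ratio with 1 signal at the floor is a bound. No scale was common to both days. The number of arrays, 1 per group, limits the precision.

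The 8 members and the 22 gene lists were chosen with earlier results of these data known. Named genes are all members and, per list and day, up to 2 highest and 2 lowest genes at least 2-fold apart, otherwise the brightest. Every other gene named, among them S100a8, S100a9, Alas2, Clec7a and all that failed the filter, was named after its values were seen. No protein sequences were used here. The procedure was tested on simulated data. Alternatives were 9 settings of scaling, floor, filter and probe set choice. Python 3.11.15, pandas 2.3.3 and statsmodels 0.14.6 were used.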

Additional observations from a re-analysis of the deposited data

How the results depend on the processing

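Lgals3 and Cd14 stayed at least 2-fold higher at day 1 in every alternative that gave a value (9 for Lgals3, 8 for Cd14). As deposited, the ratios moved to 2.91 for Lgals3, 1.98 for Cd14, 0.78 for Cd68 and 0.38 for Csf1r, the last across 0. Requiring the 50th percentile in both arrays left 1 member at least 2-fold higher at day 1 and 1 at least 2-fold lower at day 3, because Cd14 and Cd163 then had no value, and turned the galectin median to -0.27. Mrc1 ranged from -1.11 to -0.98. Cd163 moved to -0.25 with the floor at the 50th percentile, which left 1 member at least 2-fold lower, and as deposited 0 were. Of 51 alternative values of the member ratios, 46 moved by less than the SD between probe sets. Some settings could hardly move them, so this count is no measure of robustness. A lower floor left every member ratio unchanged, since none of these signals was at the floor. The mean over probe sets took only those past the filter, so the other Cd163 probe set did not enter it. The resident list's median stayed below 0 in every alternative, between -1.11 and -0.63 at day 1 and between -1.12 and -0.83 at day 3. Over all genes, as deposited, 1169 were higher and 171 lower at day 1. Asking it of both arrays left 268 and 247 at day 1 and 183 and 165 at day 3, and the floor at the 50th percentile left 224 and 203 at day 3. Aif1 and Itgam had no ratio, since signals under the floor have no order.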
